A study of Mus musculus with 20 samples.

Results

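Expression of 8 genes tied to the resting, memory and recirculating states of T cells was followed in murine CD8+ T cells given interleukin-21 or 21h10, a designed protein that mimics it. The genes are Tcf7, which encodes TCF-1, and Lef1, Foxo1, Klf2, Klf3, S1pr1, Satb1 and Myb. They are defined by their symbols, each of which was found in the deposited tables, and they are 8 of the 23992 gene symbols listed there.

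The cells came from spleens of wild-type C57BL/6J mice aged 6 to 8 weeks and were purified by negative selection. The labels mark all groups, the unstimulated ones included, as activated beforehand, for 48 hours with antibodies to CD3 and CD28. Cells were then rested overnight and given murine IL-21 (mIL-21, called WT in the labels) or 21h10 (h10 in the labels) over 24 hours. The labels do not say how the unstimulated cells were kept over that time. For the lower doses, the paper's figure legend names PBS as the treatment beside the 2 cytokines. The cytokines were used at 100 pM and 1 nM in experiment 1 and at 10 nM and 100 nM in experiment 2, and each experiment had unstimulated cells of its own. All 10 groups were sequenced in duplicate (n = 2), and nothing in the labels says whether duplicates were separate cultures or mice. The paper's study design describes RNA-seq replicates in general as independent, taken from different tissue preparations or donors. The dose range and the experiment cannot be told apart.

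TCF-1 and LEF-1 are related DNA-binding proteins of the Wnt pathway that are abundant in naive and memory T cells and fall when effector cells form. FOXO1 enters the nucleus when signaling through PI3K and AKT is low and is known to drive Klf2, and KLF2 in turn drives S1pr1, the receptor through which lymphocytes follow sphingosine-1-phosphate out of lymphoid organs. KLF3 is a repressor of the same zinc finger family, SATB1 folds chromatin in developing and peripheral T cells, and MYB maintains stem-like memory cells. Stimulation through the antigen receptor lowers many of these genes, whereas IL-21 acts mainly through STAT3.

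Levels are given as RPKM, the deposited read numbers scaled to transcript length and to the mapped reads of the library. Differences are log2 fold changes of read counts scaled with edgeR's TMM factors, tested by its quasi-likelihood test with Benjamini-Hochberg adjustment over all genes of an experiment, and a gene passed at an adjusted p under 0.05. A library of experiment 1 held 36824740 to 94070730 reads on genes and one of experiment 2 held 27072917 to 43300094, and the 8 genes had between 151 and 52136 reads in a library. RPKM and TMM scale libraries differently. With library sizes taken from mapped reads, as in RPKM, the median log2 fold change of all genes moved by -0.30 to -0.18 for treated against unstimulated cells of experiment 2 and by -0.08 to 0.08 in experiment 1, and for the 8 genes the values under that scaling are given where a call or direction depends on it. The T cell genes Cd3d, Cd3e, Cd3g, Cd2, Cd8a and Cd8b1 lay between 102 and 433 RPKM in every library. Among genes of other cells, Cd4 did not exceed 1.09 RPKM and Foxp3 0.696, while Zbtb7b, a factor of helper cells, lay between 3.88 and 11.8. The B cell genes Cd79a, Ms4a1 and Pax5 stayed at or under 0.498 RPKM and Cd79b lay between 2.68 and 10.3. The NK cell genes Ncr1 and Klrb1c stayed at or under 0.265 RPKM, whereas Eomes, which CD8+ T cells also express, lay between 4.40 and 44.0. The 3 NK cell genes summed from 10.5 to 10.8 RPKM in unstimulated and from 4.46 to 14.7 in treated libraries of experiment 1, and from 12.5 to 13.5 and from 8.66 to 44.0 in those of experiment 2, highest with 21h10 at 100 nM. Of 6 myeloid genes, S100a8 and S100a9 were listed at 0, Lyz2 and Fcgr3 stayed at or under 0.962 RPKM, and Itgam and Cd68 carried the sum. That sum went from 3.53 to 3.85 RPKM in unstimulated and from 17.1 to 34.6 in treated libraries of experiment 1, and from 5.09 to 5.25 and from 12.7 to 23.7 in those of experiment 2. The 3 genes of helper cells summed from 5.25 to 5.33 RPKM in unstimulated and from 10.7 to 12.7 in treated libraries of experiment 1, and from 4.66 to 5.79 and from 5.27 to 8.25 in those of experiment 2. Genes of dendritic cells and of erythroid cells, 4 each, stayed at or under 1.22 and 0.325 RPKM. The part of these genes' cells in the results was not tested. In bulk RNA, fewer cells of a type and less RNA per cell cannot be told apart.

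**Figure D1:**
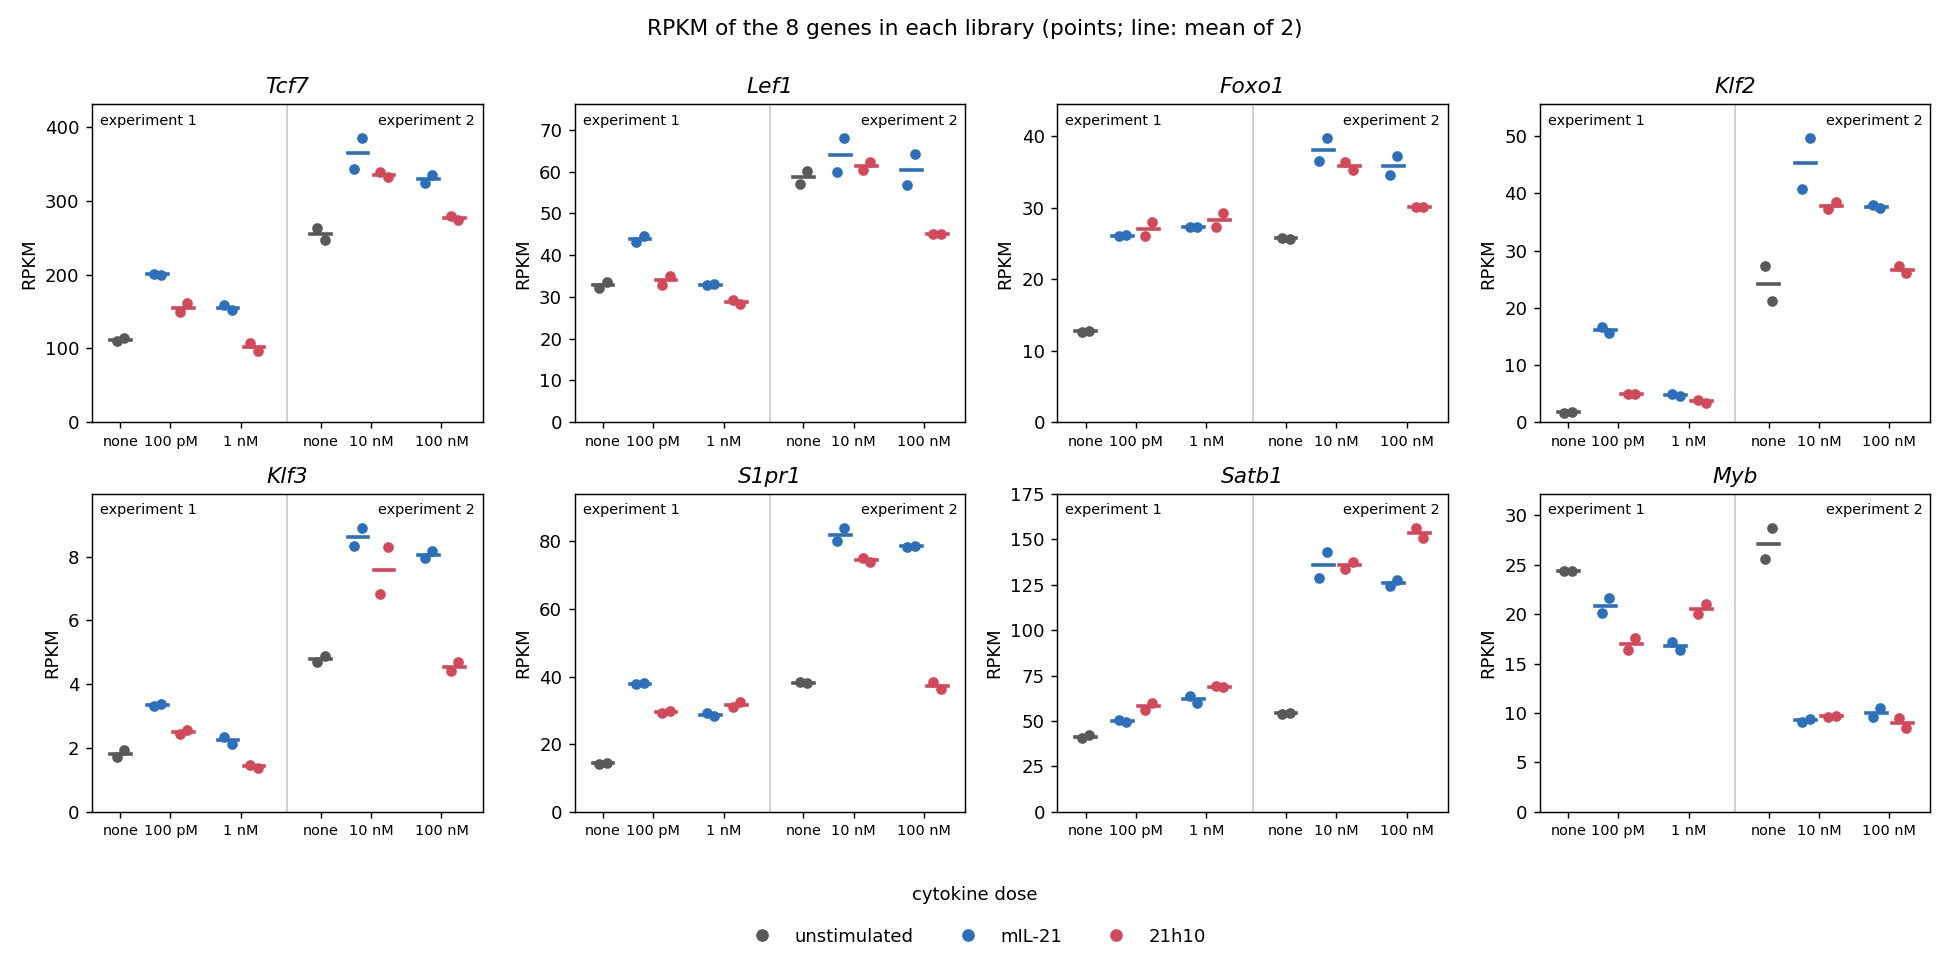
RPKM of each gene (vertical axis, linear, from 0) in every library, by cytokine and dose (horizontal axis), with experiment 1 to the left and experiment 2 to the right of the grey line. Points are libraries and short lines are means of 2. Klf2 with mIL-21 at 100 pM stands far above the other groups of experiment 1, S1pr1 with 21h10 at 100 nM stands at the level of unstimulated cells, and Myb is below the unstimulated libraries in all 8 treated groups.

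The first question was how the genes responded to cytokine. In experiment 1, mIL-21 at 100 pM changed all 8 genes, 7 higher and 1 lower, and 77.7% of all genes, 38.3% higher and 39.4% lower, passed among the 13974 tested. With 21h10 at 100 pM 7 genes passed, 6 higher and 1 lower (81.6% of all genes, 40.2% higher and 41.3% lower). With mIL-21 at 1 nM 7 passed, 6 higher and 1 lower (80.1% of all genes, 39.9% higher and 40.3% lower). With 21h10 at 1 nM 7 passed, 4 higher and 3 lower (80.3% of all genes, 38.3% higher and 42.1% lower). In total these counts are near the share over all genes, most of which changed with cytokine in that experiment. The split into higher and lower was less even than over all genes, except with 21h10 at 1 nM. In experiment 2, all 8 genes passed with mIL-21 at 10 nM, 7 higher and 1 lower (46.2% of all genes, 22.5% higher and 23.7% lower, of 13772 tested). The same numbers were found with 21h10 at 10 nM (50.1% of all genes, 25.2% higher and 24.9% lower) and with mIL-21 at 100 nM (46.2% of all genes, 22.5% higher and 23.7% lower). With 21h10 at 100 nM 6 passed, 5 higher and 1 lower (50.8% of all genes, 25% higher and 25.8% lower). The median size of the log2 fold change over the 8 genes was 0.79 with mIL-21 at 100 pM, against 0.61 over all genes. With 21h10 at 100 pM it was 0.51 against 0.67. At 1 nM it was 0.56 against 0.67 with mIL-21 and 0.54 against 0.69 with 21h10. At 10 nM it was 1.05 against 0.39 with mIL-21 and 0.93 against 0.42 with 21h10. At 100 nM it was 0.92 against 0.40 with mIL-21 and 0.43 against 0.42 with 21h10. The count with 21h10 at 1 nM was 4 of 8 with DESeq2's size factors and Wald test and 4 of 8 in a fit of the compared groups alone, where the lower values of Lef1, Klf3 and Myb were not past the threshold. The 4 comparisons within an experiment share its unstimulated libraries. The mean response of the 4 treated groups differed between experiments 2 and 1 for 6 of the 8 genes, 2 higher and 4 lower (64.7% of all genes, 31.2% higher and 33.5% lower), with no way to tell dose range and experiment apart.

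**Figure D2:**
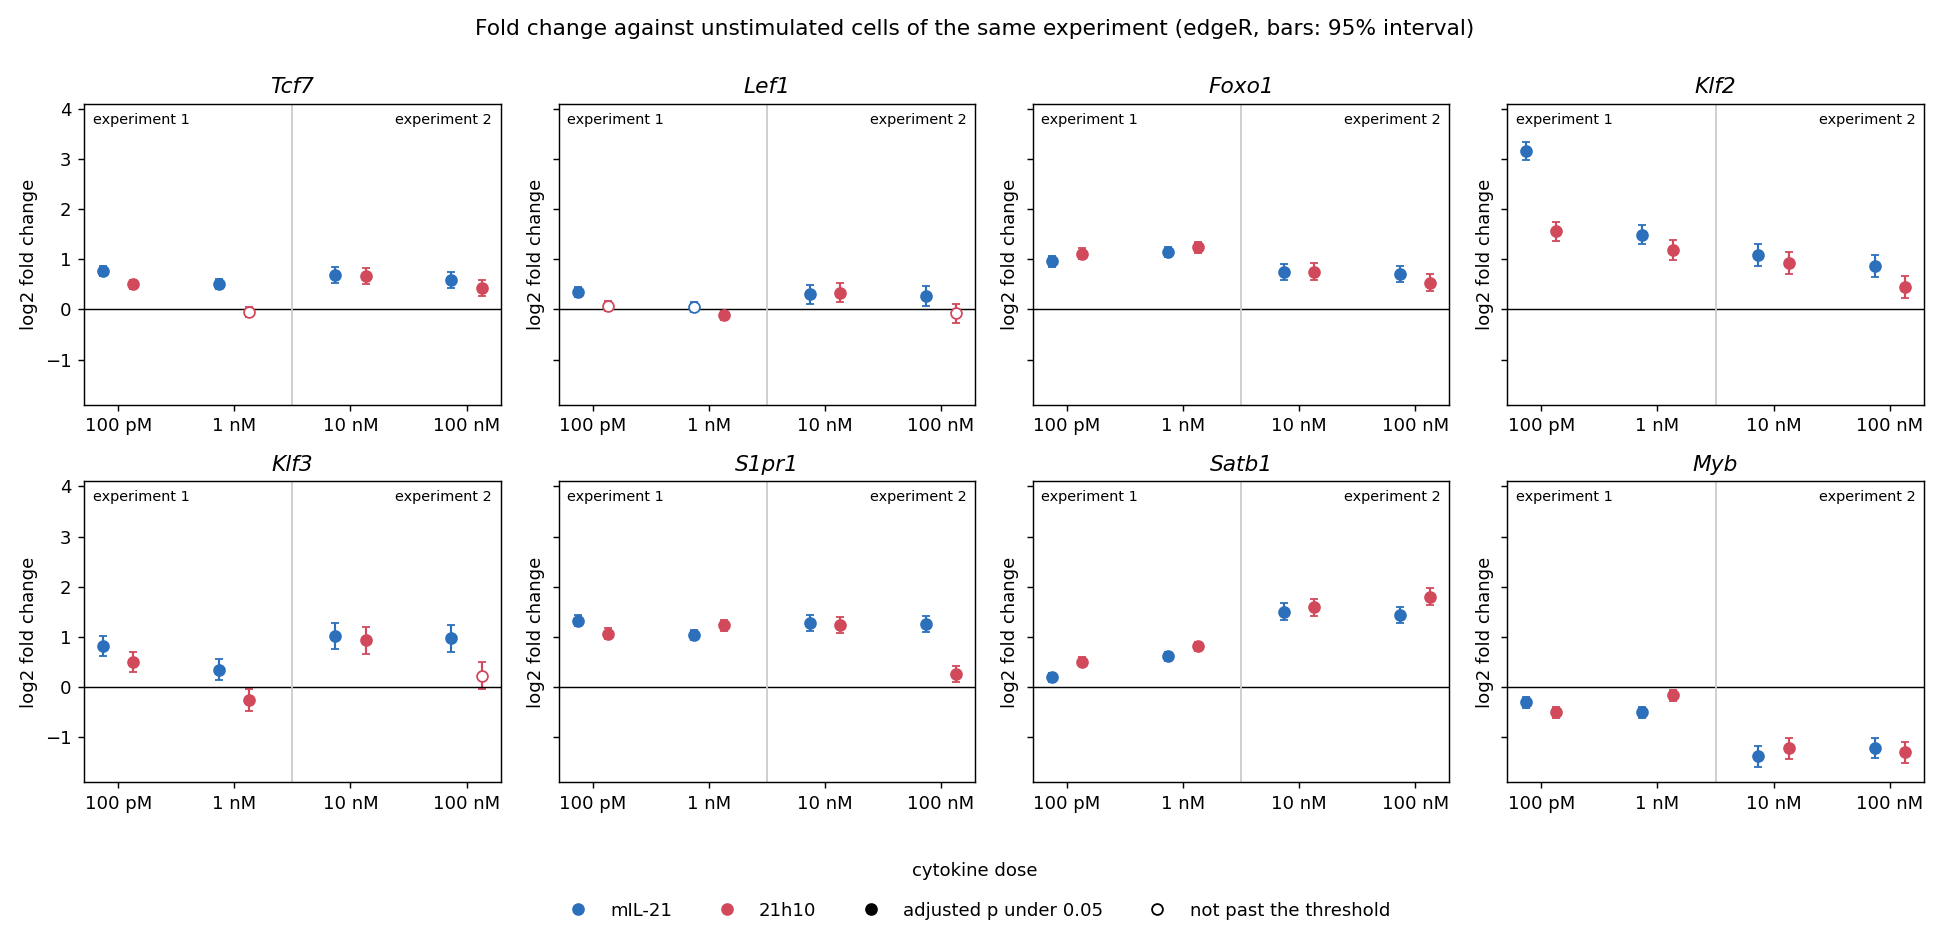
Log2 fold change of each gene against the unstimulated cells of its own experiment (vertical axis), by dose (horizontal axis), for mIL-21 and 21h10, with 95% intervals as bars; filled points passed at an adjusted p under 0.05. Foxo1 and Satb1 lie above 0 in all 8 comparisons and Myb below 0 in all 8, whereas S1pr1 falls back toward 0 at 21h10 100 nM and Tcf7 lies at -0.05 at 21h10 1 nM.

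Klf2 (NM_008452; chr8:72319033-72321656, forward strand) encodes the zinc finger factor that drives S1pr1 in resting T cells, and had the largest single fold change of the 8. In experiment 1 it stood at 1.67 and 1.76 RPKM in the unstimulated libraries. Klf2 was at 16.6 and 15.6 with mIL-21 and 4.95 and 4.95 with 21h10 at 100 pM, and at 4.87 and 4.53 with mIL-21 and 3.95 and 3.42 with 21h10 at 1 nM. All 8 treated libraries lay above both unstimulated ones, and both libraries with mIL-21 at 100 pM lay above every other library of that experiment. The log2 fold change against unstimulated cells was 3.16 (standard error 0.0816, edgeR adjusted p = 9.45e-16) with mIL-21 at 100 pM, a fold change of 8.92, and 1.55 (standard error 0.0853, edgeR adjusted p = 1.26e-11) with 21h10 at the same dose. At 1 nM it was 1.49 (adjusted p = 5.16e-11) with mIL-21 and 1.18 (adjusted p = 1.90e-09) with 21h10.

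In experiment 1 Klf2 differed more between the cytokines at 100 pM than at 1 nM. The log2 fold change of 21h10 to mIL-21 at 100 pM was -1.60 (standard error 0.0720, edgeR adjusted p = 2.43e-11), a call that held under all 8 other settings and without each library in turn. At 1 nM the difference was -0.31 (standard error 0.0867, edgeR adjusted p = 0.00891) and it was no longer past the threshold without 21h10 1 nM duplicate 2 (-0.22, adjusted p = 0.123). The change of the difference between doses was itself tested and came to 1.29 (standard error 0.113, edgeR adjusted p = 6.40e-07). From 100 pM to 1 nM Klf2 fell with mIL-21 (-1.67, adjusted p = 2.42e-11) and with 21h10 (-0.37, adjusted p = 0.00151). In experiment 2 the level was 27.3 and 21.1 RPKM without cytokine. Klf2 was then at 40.8 and 49.6 with mIL-21 and 37.3 and 38.4 with 21h10 at 10 nM, and at 37.9 and 37.5 with mIL-21 and 27.2 and 26.0 with 21h10 at 100 nM. The other 3 treated groups lay above both unstimulated libraries, while one unstimulated library was above and one below the pair with 21h10 at 100 nM. The rise there was 1.08 (adjusted p = 3.42e-07) and 0.92 (adjusted p = 2.19e-06) with mIL-21 and 21h10 at 10 nM and 0.87 (adjusted p = 4.45e-06) with mIL-21 at 100 nM. With 21h10 at 100 nM it was 0.44 (adjusted p = 0.00211), but 0.14, adjusted p = 0.323, with library sizes from mapped reads. At 100 nM 21h10 was below mIL-21 (-0.42, standard error 0.101, edgeR adjusted p = 0.0163), a call lost without either library of mIL-21 100 nM or either library of 21h10 100 nM (-0.44 to -0.42, adjusted p = 0.0833 to 0.129). The step of 21h10 from 10 to 100 nM was -0.48 (adjusted p = 0.0103) and was lost without 21h10 10 nM duplicate 2 or either library of 21h10 100 nM (-0.49 to -0.44, adjusted p = 0.0968 to 0.120) and with limma on log2(RPKM + 1) (-0.49, adjusted p = 0.0597).

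The bases before the RefSeq start of Klf2 are shown because Klf2 moved most, and because 7 of the 8 genes have an entry in the RefSeq promoter table (GRCm38.p6), S1pr1 being the one without. Capitals mark a match to the MEF2 motif, the letters CTA and TAG with 4 bases between them, which was added to the search after the sequence had been seen. The run ends where the GENCODE exon begins, and positions are counted from the RefSeq start, just after chr8:72319061.
Klf2, chr8:72318812-72319032, forward strand: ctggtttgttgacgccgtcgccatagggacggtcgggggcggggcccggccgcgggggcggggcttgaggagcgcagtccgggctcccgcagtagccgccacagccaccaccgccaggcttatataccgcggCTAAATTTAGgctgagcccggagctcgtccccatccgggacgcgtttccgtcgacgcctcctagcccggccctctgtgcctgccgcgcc
The match lies at -118 to -109 from the start, and 3.20% of 32851 promoter windows of 250 bases hold these letters on either strand. The STAT motif TTCNNNGAA (7.02% of all windows) and the FOXO motif GTAAACA (3.17%) had no match in the 15 windows of the 7 genes. The KLF motif CACCC was found in windows of each of Lef1, Klf3, Klf2, Myb, Tcf7 and Satb1 but is present in 52.0% of all windows. A match is a description of letters, not a binding site.

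S1pr1 (NM_007901; chr3:115710433-115715072, reverse strand) encodes the egress receptor, the target of KLF2. In experiment 1 its level was 14.1 and 14.6 RPKM in the unstimulated libraries. S1pr1 was at 37.7 and 38.1 with mIL-21 and 29.3 and 29.8 with 21h10 at 100 pM, and at 29.1 and 28.4 with mIL-21 and 30.9 and 32.5 with 21h10 at 1 nM. Every treated library was above both unstimulated ones. The rise was 1.32 (standard error 0.04997, edgeR adjusted p = 1.09e-13) with mIL-21 and 1.07 (standard error 0.0495, edgeR adjusted p = 1.22e-12) with 21h10 at 100 pM, and 1.04 (adjusted p = 2.06e-12) and 1.23 (adjusted p = 1.76e-13) at 1 nM. The order of the cytokines turned with dose, since 21h10 was below mIL-21 at 100 pM (-0.26, standard error 0.0484, edgeR adjusted p = 0.000463) and above it at 1 nM (0.19, standard error 0.0492, edgeR adjusted p = 0.00642). The change between the doses passed the test, at 0.44 (standard error 0.0690, edgeR adjusted p = 0.000232). The higher value with 21h10 at 1 nM was not past the threshold without 21h10 1 nM duplicate 2 (0.13, adjusted p = 0.0562), with mapped-read library sizes (0.14, adjusted p = 0.0755), with limma (0.13, adjusted p = 0.0586) or in a fit of the compared groups alone (0.18, adjusted p = 0.0764). From 100 pM to 1 nM S1pr1 fell with mIL-21 (-0.28, adjusted p = 0.000256). The step of 21h10 was 0.16 (adjusted p = 0.0134), lost without 21h10 1 nM duplicate 2 or 21h10 100 pM duplicate 2 (0.11 to 0.14, adjusted p = 0.112 to 0.124), with mapped-read library sizes (0.10, adjusted p = 0.192), with limma (0.10, adjusted p = 0.152) and in a fit of the compared groups alone (0.16, adjusted p = 0.0589).

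In experiment 2 S1pr1 was listed at 38.3 and 38.1 RPKM without cytokine. S1pr1 was then at 80.0 and 84.0 with mIL-21 and 75.1 and 73.9 with 21h10 at 10 nM, and at 78.4 and 78.7 with mIL-21 and 38.3 and 36.4 with 21h10 at 100 nM. The 6 libraries given mIL-21 or the lower dose of 21h10 lay far above the unstimulated ones, whereas the libraries with 21h10 at 100 nM overlapped the unstimulated ones. The log2 fold change was 1.28 (adjusted p = 8.97e-10) and 1.23 (adjusted p = 1.47e-09) at 10 nM and 1.26 (adjusted p = 1.18e-09) with mIL-21 at 100 nM. With 21h10 at 100 nM it was 0.27 (standard error 0.0734, edgeR adjusted p = 0.00670), a value that turned to -0.03, adjusted p = 0.741, with library sizes from mapped reads and was not past the threshold without 21h10 100 nM duplicate 1 (0.25, adjusted p = 0.0564). At 100 nM 21h10 was below mIL-21 (-0.99, standard error 0.0736, edgeR adjusted p = 5.22e-07), a fold change of 0.502, and this call held under every setting and without each library. From 10 to 100 nM of 21h10 the change was -0.97 (standard error 0.0736, edgeR adjusted p = 1.16e-06). S1pr1 was the only one of the 8 genes whose difference between the cytokines changed with dose in experiment 2, at -0.95 (standard error 0.103, edgeR adjusted p = 0.000146), where 0.922% of all genes passed. With mIL-21 the same step was -0.02 (95% interval -0.17 to 0.14).

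Klf3 (NM_008453; chr5:64803388-64832901, forward strand) encodes a KLF repressor and was a low gene, with 151 to 1186 reads in a library. At the lower doses it was listed at 1.703 and 1.92 RPKM in the unstimulated libraries. Klf3 was at 3.32 and 3.38 with mIL-21 and 2.44 and 2.57 with 21h10 at 100 pM, and at 2.35 and 2.13 with mIL-21 and 1.48 and 1.37 with 21h10 at 1 nM. Both libraries with 21h10 at 1 nM were below the unstimulated ones and the other treated libraries were above. It rose with mIL-21 (0.81, standard error 0.0933, edgeR adjusted p = 3.41e-07) and with 21h10 (0.50, adjusted p = 6.86e-05) at 100 pM. It also rose with mIL-21 at 1 nM (0.35, adjusted p = 0.00369), a call lost without unstimulated duplicate 1 (0.27, adjusted p = 0.0648). With 21h10 at 1 nM it was -0.26 (adjusted p = 0.0303), but not past the threshold with DESeq2 (-0.22, adjusted p = 0.145), in a fit of the compared groups alone (-0.20, adjusted p = 0.128), or without unstimulated duplicate 2 or 21h10 1 nM duplicate 2 (-0.22 to -0.20, adjusted p = 0.152 to 0.156). Between the cytokines the difference was -0.31 (adjusted p = 0.0109) at 100 pM, lost without mIL-21 100 pM duplicate 2 or 21h10 100 pM duplicate 2 (-0.32 to -0.29, adjusted p = 0.0585 to 0.0737), and -0.61 (standard error 0.108, edgeR adjusted p = 0.000251) at 1 nM. It fell from 100 pM to 1 nM with mIL-21 (-0.47, adjusted p = 0.00119) and with 21h10 (-0.76, adjusted p = 9.93e-06).

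At the higher doses Klf3 was at 4.69 and 4.88 RPKM without cytokine. Klf3 was then at 8.32 and 8.90 with mIL-21 and 6.83 and 8.31 with 21h10 at 10 nM, and at 7.94 and 8.16 with mIL-21 and 4.40 and 4.69 with 21h10 at 100 nM. Again both libraries of the highest dose of 21h10 were no higher than the unstimulated ones, and the other 6 treated libraries were above. The rise was 1.02 (adjusted p = 5.61e-06) with mIL-21 and 0.93 (adjusted p = 1.59e-05) with 21h10 at 10 nM and 0.97 (adjusted p = 1.06e-05) with mIL-21 at 100 nM. For 21h10 at 100 nM the value was 0.23 (adjusted p = 0.152), and -0.07, adjusted p = 0.632, with mapped-read library sizes. At 100 nM the cytokines differed by -0.75 (standard error 0.125, edgeR adjusted p = 0.00138), which held under every setting and without each library. The step from 10 to 100 nM of 21h10 was -0.71 (adjusted p = 0.00274) and was lost without 21h10 10 nM duplicate 2 or 21h10 100 nM duplicate 1 (-0.64 to -0.54, adjusted p = 0.0597 to 0.0748). The change of the cytokine difference between these doses was -0.66 (adjusted p = 0.117), and past the threshold without either unstimulated library (-0.66, adjusted p = 0.0460 to 0.0468) and without a filter on low counts (-0.67, adjusted p = 0.0310).

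Tcf7 (NM_009331; chr11:52252371-52283014, reverse strand) encodes TCF-1 and had the highest level of the 8, above that of all but 602 genes in unstimulated cells of experiment 1 and all but 198 in experiment 2. In experiment 1 it stood at 109.8 and 114 RPKM in the unstimulated libraries. Tcf7 was at 201 and 199.8 with mIL-21 and 149 and 162 with 21h10 at 100 pM, and at 159 and 152 with mIL-21 and 107 and 96.97 with 21h10 at 1 nM. In RPKM, 3 of the 4 treated groups were wholly above the unstimulated libraries and 21h10 at 1 nM was wholly below them. It rose with mIL-21 at 100 pM (0.76, standard error 0.0463, edgeR adjusted p = 6.67e-11) and less with 21h10 (0.50, adjusted p = 1.84e-08), and with mIL-21 at 1 nM (0.51, adjusted p = 1.47e-08). With 21h10 at 1 nM the log2 fold change was -0.05 (95% interval -0.15 to 0.05, adjusted p = 0.317), and it was past the threshold without 21h10 1 nM duplicate 1 (-0.10, adjusted p = 0.0488) and with mapped-read library sizes (-0.13, adjusted p = 0.0426).

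Tcf7 was lower with 21h10 than with mIL-21 at 100 pM (-0.26, standard error 0.0460, edgeR adjusted p = 0.000226) and at 1 nM (-0.56, standard error 0.0465, edgeR adjusted p = 4.40e-08). The change between the doses was -0.29 (adjusted p = 0.00423), or -0.23, adjusted p = 0.0741, with limma. The step from 100 pM to 1 nM was -0.25 (adjusted p = 0.000385) with mIL-21 and -0.55 (adjusted p = 4.35e-08) with 21h10. In experiment 2 it was at 264 and 247 RPKM without cytokine. Tcf7 was then at 344 and 385 with mIL-21 and 339 and 332 with 21h10 at 10 nM, and at 324 and 335 with mIL-21 and 279 and 274 with 21h10 at 100 nM. All 8 treated libraries were above both unstimulated ones. The rise was 0.69 (adjusted p = 1.82e-06) with mIL-21 and 0.66 (adjusted p = 2.76e-06) with 21h10 at 10 nM and 0.59 (adjusted p = 9.80e-06) with mIL-21 at 100 nM. For 21h10 at 100 nM it was 0.42 (adjusted p = 0.000290), or 0.11, adjusted p = 0.257, with mapped-read library sizes. At 100 nM the cytokines differed by -0.18 (95% interval -0.34 to -0.02, adjusted p = 0.165), not past the threshold. The step of 21h10 from 10 to 100 nM was -0.25 (adjusted p = 0.0711), past the threshold without either unstimulated library (-0.25, adjusted p = 0.0197 to 0.0200), with DESeq2 (-0.24, adjusted p = 0.0233), without a filter on low counts (-0.26, adjusted p = 0.0274) and in a fit of the compared groups alone (-0.24, adjusted p = 0.00661).

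Lef1 (NM_010703; chr3:131110471-131224356, forward strand) encodes the partner of TCF-1, and its changes were small. In experiment 1 its level was 32.1 and 33.7 RPKM in the unstimulated libraries. Lef1 was at 43.2 and 44.7 with mIL-21 and 32.9 and 35.0 with 21h10 at 100 pM, and at 32.9 and 33.0 with mIL-21 and 29.2 and 28.4 with 21h10 at 1 nM. Only mIL-21 at 100 pM stood wholly above the unstimulated libraries and only 21h10 at 1 nM wholly below. The rise with mIL-21 at 100 pM was 0.34 (standard error 0.0457, edgeR adjusted p = 2.46e-06). The values with 21h10 at 100 pM (0.07, 95% interval -0.02 to 0.17) and mIL-21 at 1 nM (0.04, 95% interval -0.05 to 0.14) were not past the threshold, except for 21h10 at 100 pM in a fit of the compared groups alone (0.11, adjusted p = 0.00146). With 21h10 at 1 nM it was -0.11 (adjusted p = 0.0399), a call lost without 9 of the 10 libraries, each left out in turn, with DESeq2 (-0.07, adjusted p = 0.216), without a filter on low counts (-0.13, adjusted p = 0.0526) and in a fit of the compared groups alone (-0.05, adjusted p = 0.367). The 9 libraries are both of unstimulated cells, mIL-21 at 100 pM and both doses of 21h10, and duplicate 1 of mIL-21 at 1 nM, and without each of them the value lay between -0.13 and -0.09 (adjusted p = 0.0561 to 0.184). Lef1 was lower with 21h10 than with mIL-21 at 100 pM (-0.27, standard error 0.0457, edgeR adjusted p = 0.000182) and at 1 nM (-0.15, adjusted p = 0.0165). The call at 1 nM was lost without mIL-21 1 nM duplicate 2 (-0.11, adjusted p = 0.125), with DESeq2 (-0.12, adjusted p = 0.0651), without a filter (-0.14, adjusted p = 0.0581) and in a fit of the compared groups alone (-0.15, adjusted p = 0.143). The dose step was -0.30 (adjusted p = 7.85e-05) with mIL-21 and -0.18 (adjusted p = 0.00475) with 21h10, the second lost without 21h10 100 pM duplicate 2 (-0.17, adjusted p = 0.0501).

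In experiment 2 Lef1 was at 57.1 and 60.3 RPKM without cytokine. Lef1 was then at 59.9 and 68.0 with mIL-21 and 60.4 and 62.2 with 21h10 at 10 nM, and at 56.9 and 64.1 with mIL-21 and 45.2 and 44.97 with 21h10 at 100 nM. The libraries with 21h10 at 100 nM were the lowest, those of mIL-21 at both doses overlapped the unstimulated ones, and those of 21h10 at 10 nM lay just above them. With TMM scaling the log2 fold change was 0.30 (adjusted p = 0.0123) with mIL-21 and 0.33 (adjusted p = 0.00607) with 21h10 at 10 nM, and 0.27 (adjusted p = 0.0232) with mIL-21 at 100 nM. With mapped-read library sizes it was smaller and not past the threshold (0.12, adjusted p = 0.267, then 0.06, adjusted p = 0.567, then 0.04, adjusted p = 0.702). The first was also lost without unstimulated duplicate 1 or mIL-21 10 nM duplicate 2 (0.22 to 0.24, adjusted p = 0.0681 to 0.107), the second without 21h10 10 nM duplicate 2 (0.29, adjusted p = 0.0635) and the third without unstimulated duplicate 1 or mIL-21 100 nM duplicate 2 (0.16 to 0.19, adjusted p = 0.124 to 0.296) and in a fit of the compared groups alone (0.29, adjusted p = 0.0654). The value with 21h10 at 100 nM was -0.08 (adjusted p = 0.471), and -0.38, adjusted p = 0.00169, with mapped-read library sizes. At 100 nM 21h10 was below mIL-21 (-0.35, standard error 0.0901, edgeR adjusted p = 0.0250), a call lost without mIL-21 100 nM duplicate 2 or either library of 21h10 100 nM (-0.38 to -0.24, adjusted p = 0.125 to 0.227). The step of 21h10 from 10 to 100 nM was -0.41 (adjusted p = 0.0120), lost without 21h10 10 nM duplicate 2 or either library of 21h10 100 nM (-0.45 to -0.38, adjusted p = 0.0802 to 0.136).

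Of the 15 promoter windows of these genes, 1 held the TCF/LEF letters CTTTGA, which 13.8% of all windows hold on either strand. It lies before an internal start of Lef1, and capitals mark the 2 matches, read as TCAAAG on this strand, at -180 to -175 and -120 to -115 from that start.
Lef1 internal start, chr3:131156044-131156293, forward strand: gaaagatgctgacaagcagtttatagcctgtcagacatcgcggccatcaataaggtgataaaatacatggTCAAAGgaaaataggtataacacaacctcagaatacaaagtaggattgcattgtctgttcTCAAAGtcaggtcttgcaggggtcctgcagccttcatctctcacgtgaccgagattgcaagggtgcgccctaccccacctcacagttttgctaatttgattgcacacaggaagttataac
The tables list 3 transcripts of Lef1, and the reads on the other 2 came to between 91.2% and 97.2% of those on the longest one, so the counts do not tell the starts apart. In the GENCODE annotation of GRCm38, 13.8% of the exonic bases of Lef1 overlap Gm43352, an antisense gene, and Foxo1 shares 7.78% with Gm20402, also antisense. Myb shares 6.26% with Gm26577 and Klf3 3.59% with Gm20033 on the other strand, and Satb1 shares under 1% with Gm36931 and with Gm6934. These shares are of all exonic bases of a gene. Of the single transcript searched for each gene, the shared stretch was 34.8% for Lef1 and 9.26% for Myb. It was 7.76% for Klf3, 6.81% for Foxo1 with Gm20402 and 2.65% for Satb1 with Gm36931. Whether the counts used strand is not given in the sources used here, so reads of such pairs cannot be told apart. Tcf7, Klf2 and S1pr1 overlapped no other gene.

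Foxo1 (NM_019739; chr3:52268336-52353221, forward strand) encodes the forkhead factor of resting T cells that acts upstream of Klf2. In experiment 1 it was at 12.6 and 12.8 RPKM in the unstimulated libraries. Foxo1 was at 26.0 and 26.2 with mIL-21 and 26.0 and 28.02 with 21h10 at 100 pM, and at 27.4 and 27.3 with mIL-21 and 27.4 and 29.3 with 21h10 at 1 nM. The treated groups lay close together, with neighbouring groups overlapping, and all 8 libraries were above the unstimulated ones. The rise was 0.96 (standard error 0.0510, edgeR adjusted p = 1.07e-11) with mIL-21 and 1.11 (adjusted p = 9.67e-13) with 21h10 at 100 pM, and 1.14 (adjusted p = 7.76e-13) and 1.24 (adjusted p = 2.13e-13) at 1 nM. At 100 pM Foxo1 was higher with 21h10 than with mIL-21 by 0.15 (adjusted p = 0.0225), a value that was 0.05, adjusted p = 0.530, with mapped-read library sizes and 0.05, adjusted p = 0.521, with limma, and was not past the threshold without either library of mIL-21 100 pM or either library of 21h10 100 pM (0.13 to 0.17, adjusted p = 0.0630 to 0.162). At 1 nM the difference was 0.10 (95% interval -0.01 to 0.20), past the threshold without 21h10 1 nM duplicate 1 (0.16, adjusted p = 0.00883). The step from 100 pM to 1 nM was 0.18 (adjusted p = 0.00915) with mIL-21, lost with mapped-read library sizes (0.07, adjusted p = 0.396), with limma (0.07, adjusted p = 0.363) and without mIL-21 1 nM duplicate 2 or mIL-21 100 pM duplicate 1 (0.15 to 0.17, adjusted p = 0.0628 to 0.0978), and 0.13 (adjusted p = 0.0530) with 21h10, past the threshold without either library of mIL-21 1 nM or 21h10 1 nM duplicate 1 (0.13 to 0.19, adjusted p = 0.00243 to 0.0375) and with DESeq2 (0.15, adjusted p = 0.0223).

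In experiment 2 Foxo1 was at 25.8 and 25.6 RPKM without cytokine. Foxo1 was then at 36.5 and 39.7 with mIL-21 and 36.4 and 35.3 with 21h10 at 10 nM, and at 34.5 and 37.2 with mIL-21 and 30.1 and 30.1 with 21h10 at 100 nM. All treated libraries were above the unstimulated ones and those with 21h10 at 100 nM were the lowest among them. The rise was 0.75 (adjusted p = 1.30e-06) with mIL-21 and 0.75 (adjusted p = 1.26e-06) with 21h10 at 10 nM, 0.70 (adjusted p = 2.65e-06) with mIL-21 at 100 nM and 0.53 (adjusted p = 5.05e-05) with 21h10 at 100 nM. The cytokines differed by 0.00 (95% interval -0.16 to 0.17) at 10 nM and by -0.17 (95% interval -0.34 to -0.01) at 100 nM, neither past the threshold. The step of 21h10 between these doses was -0.22 (adjusted p = 0.130), past the threshold without either unstimulated library (-0.22, adjusted p = 0.0479) and in a fit of the compared groups alone (-0.21, adjusted p = 0.0192).

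Satb1 (NM_001163630; chr17:51736187-51833290, reverse strand) encodes the chromatin organizer and rose in every treated group. In experiment 1 it was at 40.8 and 42.1 RPKM in the unstimulated libraries. Satb1 was at 50.7 and 49.3 with mIL-21 and 56.3 and 59.8 with 21h10 at 100 pM, and at 64.0 and 59.7 with mIL-21 and 69.1 and 68.7 with 21h10 at 1 nM. All treated libraries exceeded the unstimulated ones, and those with 21h10 at 1 nM were the highest. The rise was 0.19 (standard error 0.0427, edgeR adjusted p = 0.000510) with mIL-21 and 0.51 (standard error 0.0426, edgeR adjusted p = 4.25e-09) with 21h10 at 100 pM, and 0.62 (adjusted p = 3.45e-10) and 0.82 (adjusted p = 6.26e-12) at 1 nM. Satb1 was higher with 21h10 than with mIL-21 at 100 pM (0.32, adjusted p = 1.67e-05) and at 1 nM (0.20, adjusted p = 0.00122), the second call being lost in a fit of the compared groups alone (0.20, adjusted p = 0.0543). It rose from 100 pM to 1 nM with mIL-21 (0.42, adjusted p = 6.80e-07) and with 21h10 (0.31, adjusted p = 1.74e-05).

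In experiment 2 it was at 54.0 and 54.6 RPKM without cytokine. Satb1 was then at 129 and 143.1 with mIL-21 and 133.8 and 137.5 with 21h10 at 10 nM, and at 124 and 128 with mIL-21 and 156 and 151 with 21h10 at 100 nM. The treated libraries stood more than 2-fold above the unstimulated ones, again with 21h10 at 100 nM on top. The rise was 1.5 (standard error 0.0786, edgeR adjusted p = 2.69e-10) with mIL-21 and 1.59 (adjusted p = 1.37e-10) with 21h10 at 10 nM, 1.44 (adjusted p = 4.94e-10) with mIL-21 at 100 nM and 1.80 (standard error 0.0793, edgeR adjusted p = 3.72e-11) with 21h10 at 100 nM. At 100 nM Satb1 was the one gene of the 8 that was higher with 21h10, by 0.36 (standard error 0.0770, edgeR adjusted p = 0.00778), a call lost with limma (0.28, adjusted p = 0.0532) and without mIL-21 100 nM duplicate 1 or either library of 21h10 100 nM (0.32 to 0.36, adjusted p = 0.0699 to 0.118). From 10 to 100 nM of 21h10 the value was 0.21 (adjusted p = 0.143), past the threshold in a fit of the compared groups alone (0.21, adjusted p = 0.0164).

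Myb (NM_001198914; chr10:21124935-21160984, reverse strand) encodes a factor of stem-like memory cells and was lower in every treated group. In experiment 1 it was at 24.4 and 24.4 RPKM in the unstimulated libraries. Myb was at 20.1 and 21.6 with mIL-21 and 16.3 and 17.6 with 21h10 at 100 pM, and at 17.2 and 16.4 with mIL-21 and 20.1 and 21.1 with 21h10 at 1 nM. All treated libraries were below both unstimulated ones. The log2 fold change was -0.30 (standard error 0.0530, edgeR adjusted p = 4.96e-05) with mIL-21 and -0.50 (standard error 0.0525, edgeR adjusted p = 1.02e-07) with 21h10 at 100 pM, and -0.50 (adjusted p = 1.28e-07) with mIL-21 at 1 nM. With 21h10 at 1 nM it was -0.16 (adjusted p = 0.00992), a call lost with DESeq2 (-0.12, adjusted p = 0.0549), in a fit of the compared groups alone (-0.10, adjusted p = 0.108) and without unstimulated duplicate 1 or 21h10 1 nM duplicate 1 (-0.14 to -0.11, adjusted p = 0.0787 to 0.0800). The order of the cytokines turned between the doses, since Myb was lower with 21h10 at 100 pM (-0.19, adjusted p = 0.00844) and higher with it at 1 nM (0.34, standard error 0.0542, edgeR adjusted p = 9.15e-05). The first was lost without mIL-21 100 pM duplicate 2 or 21h10 100 pM duplicate 1 (-0.18 to -0.13, adjusted p = 0.0736 to 0.163), while the change between the doses was 0.53 (standard error 0.0761, edgeR adjusted p = 0.000105). From 100 pM to 1 nM Myb fell with mIL-21 (-0.19, adjusted p = 0.0103), lost without mIL-21 100 pM duplicate 2 (-0.13, adjusted p = 0.172), and rose with 21h10 (0.34, adjusted p = 6.87e-05).

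In experiment 2 Myb was at 25.5 and 28.7 RPKM without cytokine. Myb was then at 9.10 and 9.38 with mIL-21 and 9.61 and 9.73 with 21h10 at 10 nM, and at 9.62 and 10.5 with mIL-21 and 9.46 and 8.48 with 21h10 at 100 nM. The treated libraries fell within a narrow range, far below the unstimulated ones. It fell with a log2 fold change of -1.38 (standard error 0.0974, edgeR adjusted p = 1.10e-08) with mIL-21 and -1.22 (adjusted p = 4.91e-08) with 21h10 at 10 nM, -1.21 (adjusted p = 5.27e-08) with mIL-21 at 100 nM and -1.30 (adjusted p = 2.64e-08) with 21h10 at 100 nM. The cytokines differed by 0.16 (95% interval -0.05 to 0.36) at 10 nM and by -0.09 (95% interval -0.30 to 0.12) at 100 nM, neither past the threshold.

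Between the cytokines at matched doses, all 8 genes passed at 100 pM, 2 higher and 6 lower with 21h10 (38.6% of all genes, 19.6% higher and 19% lower). The count was 5 without mIL-21 100 pM duplicate 2. At 1 nM 7 passed, 3 higher and 4 lower (37.7% of all genes, 19.6% higher and 18.1% lower), or 4 in a fit of the compared groups alone. At 10 nM none of the 8 passed in edgeR or with DESeq2, limma or any other setting, none had an unadjusted p under 0.05, and 1 of 13772 genes (0.00726%) passed. The values lay between -0.16 for Klf2 (95% interval -0.38 to 0.05) and 0.16 for Myb (95% interval -0.05 to 0.36). At 100 nM 5 passed, 1 higher and 4 lower (8.53% of all genes, 4.02% higher and 4.52% lower), which became 3 without either library of mIL-21 at 100 nM and 2 without either library of 21h10 at 100 nM. The 2 that remained called throughout were Klf3 and S1pr1. The median size of the difference over the 8 genes was 0.27 at 100 pM, 0.26 at 1 nM, 0.07 at 10 nM and 0.36 at 100 nM, against 0.19, 0.20, 0.13 and 0.19 over all genes. The difference changed with dose for 4 genes in experiment 1 (Klf2, S1pr1 and Myb up, Tcf7 down), where 18.4% of all genes, 8.34% higher and 10% lower, passed. In experiment 2 it did for S1pr1 alone, downward (0.922% of all genes, 0.457% higher and 0.465% lower).

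**Figure D3:**
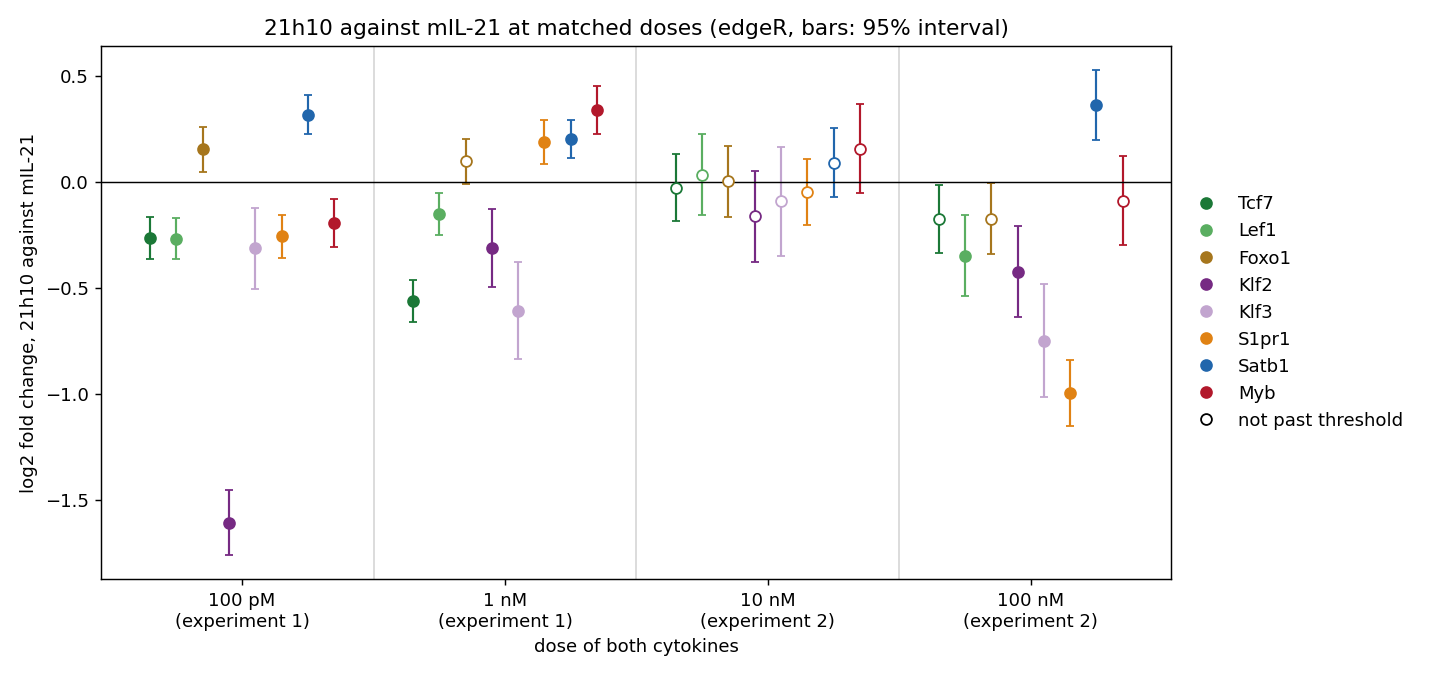
Log2 ratio of 21h10 to mIL-21 (vertical axis) for the 8 genes at each of the 4 doses (horizontal axis), with 95% intervals as bars; open points were not past the adjusted p of 0.05. Klf2 at 100 pM (-1.60) and S1pr1 at 100 nM (-0.99) stand apart, and all 8 intervals include 0 at 10 nM.

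The doses 100 pM of 21h10 and 1 nM of mIL-21 were also set side by side. The log2 fold change of the former to the latter lay between -0.11 for Satb1 (95% interval -0.19 to -0.02) and 0.15 for Klf3 (95% interval -0.05 to 0.35). None of the 8 passed in edgeR or under another setting, 1 (Satb1) had an unadjusted p under 0.05, and 0.737% of all genes passed. A p that misses the threshold does not show equal levels, and the intervals give the sizes that remain possible. Within a cytokine, the step from 100 pM to 1 nM was past the threshold for 8 genes with mIL-21, 2 higher and 6 lower (34.5% of all genes, 17.9% higher and 16.6% lower). With 21h10 it was for 7, 3 higher and 4 lower (39.2% of all genes, 20.1% higher and 19.1% lower). From 10 to 100 nM it was past the threshold for none with mIL-21, where none of 13772 genes passed in edgeR (361 had an unadjusted p under 0.05; DESeq2 called 0). With 21h10 it was past the threshold for 4, all lower (5.33% of all genes, 1.88% higher and 3.45% lower), namely Lef1, Klf2, Klf3 and S1pr1. That count was 1 without 21h10 10 nM duplicate 2 or 21h10 100 nM duplicate 1, 2 without 21h10 100 nM duplicate 2, and 7 in a fit of the compared groups alone.

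Other genes of the same pathways were taken from lists chosen for their function, and the examples were named by the size of their response to 21h10 at 1 nM. Their values against unstimulated cells at that dose were therefore large and past the threshold by selection, and only describe these genes. The share of all genes past the threshold in the same comparison is given beside each count. The median log2 fold change with 21h10 at 1 nM against unstimulated cells was -0.04 over all genes. Of 15 relatives and partners of TCF-1 and beta-catenin, 8 rose and 4 fell with 21h10 at 1 nM (80.3% of all genes, median 0.49) and 5 rose and 3 fell with 21h10 at 100 nM (50.8% of all genes). Between the cytokines, 3 were higher and 2 lower with 21h10 at 100 pM (38.6% of all genes) and 2 were higher and 7 lower at 1 nM (37.7% of all genes). At 100 nM 0 were higher and 0 lower (8.53% of all genes). The corepressors Tle3 and Tle4 went apart. Tle3 rose from 12.04 and 12.5 RPKM to 33.7 and 31.6 with 21h10 at 1 nM (1.49, adjusted p = 4.83e-15), and Tle4 fell from 5.37 and 5.32 to 2.08 and 2.34 (-1.18, adjusted p = 5.45e-11). Tle4 was also lower with 21h10 than with mIL-21 at 100 pM (-0.52, adjusted p = 1.07e-05) and 1 nM (-0.81, adjusted p = 1.96e-07). Bcl9, a beta-catenin cofactor, rose with 21h10 at 1 nM (0.68, adjusted p = 4.49e-08) and was at -0.40 (adjusted p = 0.0453) with 21h10 at 100 nM. The second call was lost with DESeq2 (-0.38, adjusted p = 0.0577) and in a fit of the compared groups alone (-0.38, adjusted p = 0.0643). It was also lost without 5 of the 10 libraries, down to -0.30 without unstimulated duplicate 1. In experiment 1 Bcl9 was at 2.33 and 2.17 RPKM without cytokine and 4.08 and 3.96 with mIL-21 at 1 nM. In experiment 2 it was at 2.50 and 2.07 without cytokine and 1.45 and 1.72 with mIL-21 at 100 nM.

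Among 20 genes of the FOXO pathway, 17 rose and 2 fell with mIL-21 at 100 pM (77.7% of all genes), 17 rose and 2 fell with 21h10 at 1 nM (80.3% of all genes, median 0.75) and 9 rose and 5 fell with 21h10 at 100 nM (50.8% of all genes). Between the cytokines, 11 were higher and 4 lower with 21h10 at 100 pM (38.6% of all genes) and 7 were higher and 3 lower at 1 nM (37.7% of all genes). At 100 nM 1 was higher and 7 were lower (8.53% of all genes). Pik3ip1, an inhibitor of PI3K, rose from 4.70 and 5.22 RPKM to 30.6 and 30.8 with 21h10 at 1 nM (2.72, adjusted p = 2.79e-17), and in experiment 2 was at 20.6 and 18.5 without cytokine and 16.3 and 15.7 with 21h10 at 100 nM (0.01, adjusted p = 0.935). Both of the latter libraries were below the former in RPKM, and with mapped-read library sizes the value was -0.29, adjusted p = 0.0222. Pik3ip1 was at 34.1 and 34.4 RPKM with mIL-21 at 1 nM and at 22.5 and 19.2 with mIL-21 at 100 nM. Ccng2, a FOXO target that encodes an atypical cyclin, rose with 21h10 at 1 nM, from 17.4 and 17.3 to 74.1 and 78.1 RPKM (2.22, adjusted p = 1.41e-16), and fell with 21h10 at 100 nM, from 50.6 and 50.2 to 25.0 and 19.999 (-0.87, adjusted p = 2.58e-06). The same directions were seen with mIL-21, with Ccng2 at 80.3 and 72.2 RPKM at 1 nM and 24.0 and 24.2 at 100 nM. Dose range and experiment cannot be told apart here. Bcl6, a repressor tied to memory and a known target of STAT3, rose with 21h10 at 1 nM (2.92, adjusted p = 1.20e-15) and at 100 nM (2.02, adjusted p = 1.03e-09).

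Of the 12 other KLF genes tested in experiment 1, 10 rose and 0 fell with mIL-21 at 100 pM (77.7% of all genes) and 8 rose and 1 fell with 21h10 at 1 nM (80.3% of all genes, median 0.46), and of the 13 tested in experiment 2, 5 rose and 2 fell with 21h10 at 100 nM (50.8% of all genes). Between the cytokines, 3 were higher and 1 lower with 21h10 at 100 pM (38.6% of all genes) and 2 were higher and 2 lower at 1 nM (37.7% of all genes). At 100 nM 0 were higher and 3 lower (8.53% of all genes). Klf7 stood at 6.48 and 6.31 RPKM with mIL-21 and 10.9 and 12.1 with 21h10 at 100 pM (0.95, adjusted p = 4.07e-07), a direction opposite to that of Klf2. Klf9 (1.68, adjusted p = 4.51e-13) and Klf13 (0.95, adjusted p = 3.02e-12) rose with 21h10 at 1 nM, and Klf13 was lower with 21h10 than with mIL-21 at 100 nM (-0.44, adjusted p = 0.00417), as Klf2 and Klf3 were. That call was lost without 21h10 100 nM duplicate 2 (-0.44, adjusted p = 0.0587) or mIL-21 100 nM duplicate 1 (-0.41, adjusted p = 0.0569).

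Of 9 genes of sphingosine-1-phosphate signaling tested in experiment 1, 8 rose and 1 fell with 21h10 at 1 nM (80.3% of all genes, median 0.91), and of 6 tested in experiment 2, 0 rose and 1 fell with 21h10 at 100 nM (50.8% of all genes). Between the cytokines, 5 were higher and 0 lower with 21h10 at 100 pM (38.6% of all genes) and 4 were higher and 2 lower at 1 nM (37.7% of all genes). At 100 nM 0 were higher and 2 lower (8.53% of all genes). Cd69, whose product holds S1PR1 inside the cell, rose from 16.0 and 15.8 to 27.4 and 29.1 RPKM with 21h10 at 1 nM (0.91, adjusted p = 3.05e-10). At 100 nM it was lower with 21h10 than with mIL-21 (-0.60, adjusted p = 0.00115), as S1pr1 was. Spns2, an exporter of sphingosine-1-phosphate, had 5 and 6 reads in the unstimulated libraries of experiment 1 and 114 to 666 in the treated ones, and at most 11 in any library of experiment 2. The kinase gene Sphk2 fell with 21h10 at 1 nM (-0.76, adjusted p = 5.63e-07). Of 3 relatives of Myb and Satb1, 1 rose and 2 fell with 21h10 at 1 nM (80.3% of all genes, median -0.82). Those that fell were Mybl1 (-0.82, adjusted p = 3.71e-08) and Mybl2 (-1.03, adjusted p = 9.04e-11), whose values with 21h10 at 100 nM were -0.01 (adjusted p = 0.974) and -0.29 (adjusted p = 0.0205). The last was lost in a fit of the compared groups alone (-0.27, adjusted p = 0.0700) and without 21h10 100 nM duplicate 2 (-0.24, adjusted p = 0.157) or unstimulated duplicate 1 (-0.19, adjusted p = 0.142).

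Of 20 other factors of quiescence and memory, 12 rose and 7 fell with 21h10 at 1 nM (80.3% of all genes, median 0.40) and 8 rose and 9 fell with 21h10 at 100 nM (50.8% of all genes). Between the cytokines, 5 were higher and 8 lower with 21h10 at 100 pM (38.6% of all genes) and 8 were higher and 8 lower at 1 nM (37.7% of all genes). At 100 nM 0 were higher and 7 lower with 21h10 than with mIL-21 (8.53% of all genes). Dapl1, a gene of naive and early memory cells, was at 53.7 and 60.8 RPKM without cytokine, 46.3 and 46.7 with mIL-21 and 21.5 and 20.05 with 21h10 at 100 pM, and the cytokines differed by -1.06 (adjusted p = 9.18e-08). Dapl1 was also low with mIL-21 at 1 nM, at 21.9 and 25.9 RPKM. Id3, which encodes an inhibitor of E proteins kept by memory precursors, was at 4.33 and 5.39 RPKM without cytokine, 7.203 and 7.79 with mIL-21 and 2.09 and 2.10 with 21h10 at 100 pM. It rose with mIL-21 (0.56, adjusted p = 0.000360) and fell with 21h10 (-1.18, adjusted p = 1.92e-07), and the difference of the cytokines at this dose was -1.74 (adjusted p = 1.88e-08). These opposite directions were seen at 100 pM only. Id3 was at 1.88 and 1.94 RPKM with mIL-21 at 1 nM, below the unstimulated libraries. In experiment 2 it was at 15.1 and 9.96 without cytokine and 1.03 and 1.66 with mIL-21 at 10 nM. Cdkn2d, which encodes an inhibitor of cyclin-dependent kinases, rose from 17.8 and 18.6 to 129 and 121 RPKM with 21h10 at 1 nM (2.86, adjusted p = 1.02e-17).

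The shape of each gene's pattern was described by Pearson's r and Spearman's rho of log2 CPM over the 20 libraries, after centring within each experiment, so that the points share their experiment, unstimulated groups and scaling. Among the 8 genes, r was highest between Tcf7 and Klf3 (0.92, rho 0.91), Lef1 and Klf3 (0.90, rho 0.93) and Foxo1 and S1pr1 (0.87, rho 0.54). Between Klf2 and S1pr1 it was 0.75 (rho 0.85). Myb had a negative r and rho with each of the other 7, down to -0.88 (rho -0.55) with Satb1. For Myb and Satb1 r was -0.44 in experiment 1 alone and -0.96 in experiment 2 alone. Where r and rho differ, as for Foxo1 and S1pr1, the order of pairs depends on the measure. Over the 9429 genes with a mean of at least 5 CPM in each experiment, the nearest pattern by r to Tcf7 was that of Rasa3 (0.988), followed by Arhgap4 and Arrb2. Nearest to Foxo1 was Txk (0.992), then Fry and Gng2, and nearest to Satb1 was Gzmb (0.988), the gene of the cytotoxic protease granzyme B, then Aqp9 and Gp49a. S1pr1 was nearest to Dirc2 (0.974), then Elf4 and Cep97, and Klf2 to Cdc25b (0.941), then Klra12 and Sla. Klf3 was nearest to Ppp2r5a (0.956), then D930015E06Rik and Cmah, and Lef1 to D930015E06Rik (0.918), then Ankrd16 and Stk38. Myb was nearest to Vwa8 (0.966), then to Msh6, a mismatch repair gene, and Sms, which encodes spermine synthase. By rho, several of these were less alike, with 0.872 for Fry, 0.871 for Gng2, 0.862 for Elf4, 0.753 for Cep97 and 0.786 for Sms.

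**Figure D4:**
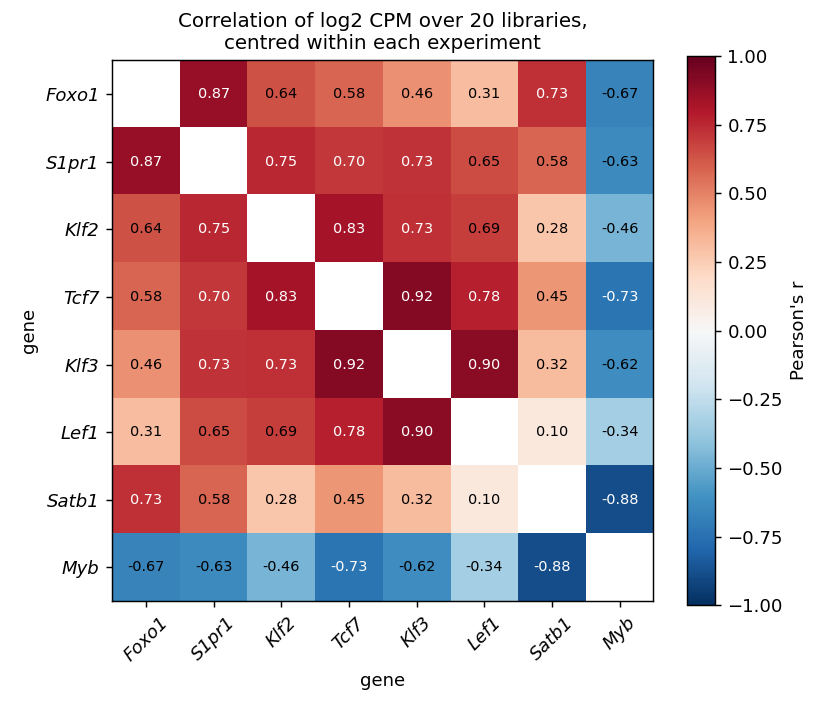
Pearson's r of log2 CPM, centred within each experiment, between each pair of the 8 genes over 20 libraries (both axes list the genes; colour from -1 to 1). Myb is negative with every other gene, and the highest value is 0.92 for Tcf7 and Klf3.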

How the data were processed

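RNA from 20 CD8+ T cell libraries was sequenced by the authors on an Illumina NovaSeq (KAPA mRNA HyperPrep). Reads were mapped to mm10 (GRCm38) with TopHat2 2.0.11, per the labels and the study's methods. The submitters' processing notes also name Bowtie2 2.2.6, SAMtools 0.1.8, bedtools 2.25.0 and edgeR. The deposited counts are whole reads on the exons of each RefSeq transcript, which the authors turned into RPKM with transcript lengths and mapped reads. The counting tool, the use of strand and the annotation version are not given in the sources used here.

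Each symbol was represented by its longest transcript, and for the 8 genes no other transcript had more reads. Counts were filtered with filterByExpr (least count 10, least total 15), TMM-scaled, and tested in edgeR 4.0.16 (R 4.3.3) by the quasi-likelihood functions glmQLFit and glmQLFTest. One fit per experiment took its 10 libraries, with group as the only factor. Standard errors are the log2 fold change over the square root of F. Log2 CPM used a prior count of 2. A further fit of all 20 libraries compared the responses of the experiments. With 2 libraries a group, exact permutation p-values are never under 0.33, so the p-values rest on the spread shared across genes and groups. They measure only the spread between these libraries. The paper describes RNA-seq replicates as independent, but the labels do not say what separates the duplicates of a group. The alternatives were DESeq2 1.42.0, limma 3.58.1 on log2(RPKM + 1) and on log2(RPKM + 0.1) (genes reaching an RPKM of 1 in 2 or more libraries), no filter, the compared groups alone, a replicate block, the most-read transcript, library sizes from mapped reads and each library left out. Promoters come from the RefSeq table (GRCm38.p6), and positions and overlaps from GENCODE M21. Python 3.11.15 and BLAST 2.17.0 were used, the latter to look for near-identical copies, of which Foxo1 has a stretch in Rsf1 covering 1.45% of its transcript.

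The 8 genes, the lists and the comparisons were chosen with earlier results of these data known. Named pathway genes are up to 3 of each list with the largest change of 21h10 at 1 nM against unstimulated cells among those past the threshold with a mean RPKM of at least 1 in either group, and the 3 genes nearest in pattern to each of the 8.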

Additional observations from a re-analysis of the deposited data

Results flagged for a closer look

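With duplicates, no test for a library apart from its group was possible. Differences between effects were tested in edgeR with an interaction contrast. In experiment 1, the difference of 21h10 from mIL-21 changed from 100 pM to 1 nM, on the log2 scale, by 1.29 (standard error 0.113, edgeR adjusted p = 6.40e-07) for Klf2, whose difference of -1.60 at 100 pM was -0.31 at 1 nM. For S1pr1 the change was 0.44 (standard error 0.0690, edgeR adjusted p = 0.000232) and for Myb 0.53 (standard error 0.0761, edgeR adjusted p = 0.000105), both lower with 21h10 at 100 pM and higher with it at 1 nM. The call of S1pr1 at 1 nM was lost with mapped-read library sizes (0.14, edgeR adjusted p = 0.0755), with limma and with the compared groups alone. That of Myb at 100 pM was lost without mIL-21 100 pM duplicate 2 or 21h10 100 pM duplicate 1. For Tcf7 the change was -0.29 (standard error 0.0654, edgeR adjusted p = 0.00423), or -0.23, limma adjusted p = 0.0741, on log2(RPKM + 1). In experiment 2, S1pr1 changed by -0.95 (standard error 0.103, edgeR adjusted p = 0.000146) from 10 to 100 nM.

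The response to cytokine (4 treated groups averaged, relative to unstimulated cells) was compared between the experiments in a fit of all 20 libraries, in which 64.7% of 14530 genes differed. In experiment 2 it was lower than in experiment 1 for Foxo1 (-0.49, standard error 0.0714, edgeR adjusted p = 3.48e-06), Klf2 (-1.08, standard error 0.112, edgeR adjusted p = 2.96e-08) and S1pr1 (-0.21, standard error 0.0645, edgeR adjusted p = 0.00607). Myb fell further (-0.97, standard error 0.0874, edgeR adjusted p = 3.03e-09) and Satb1 rose further (0.99, standard error 0.0665, edgeR adjusted p = 3.15e-11). For Klf3 the response was higher (0.38, standard error 0.123, edgeR adjusted p = 0.00998), a call lost without unstimulated duplicate 2 of experiment 1 (0.31, adjusted p = 0.0793) or unstimulated duplicate 1 of experiment 2 (0.31, adjusted p = 0.0672), with mapped-read library sizes (0.21, adjusted p = 0.162) and with limma on log2(RPKM + 0.1) (0.22, adjusted p = 0.0857). For Tcf7 (0.10, 95% interval -0.03 to 0.24) and Lef1 (0.06, 95% interval -0.11 to 0.22) the difference was not past the threshold. Dose range and experiment cannot be told apart in these values.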

How the results depend on the processing

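Of 1112 log2 fold changes of single genes under another setting, 1037 kept their direction and their side of the threshold, as did 1429 of 1500 with a library left out. With mapped-read library sizes, limma on log2(RPKM + 1) and limma on log2(RPKM + 0.1), in that order, the values that turned were, for 21h10 at 100 nM against unstimulated cells, S1pr1 (-0.032, -0.032 and -0.033) and Klf3 (-0.075, -0.062 and -0.074), and, for the response of experiment 2 against experiment 1, Tcf7 (-0.065, -0.063 and -0.065) and Lef1 (-0.108, -0.106 and -0.108). Only S1pr1 among them had been past the threshold. In a fit of the compared groups alone, Tcf7 with 21h10 at 1 nM against unstimulated cells was 0.0058, and with each library left out it ranged from -0.10 to 0.0029, the latter without 21h10 1 nM duplicate 2. The change of the cytokine difference of Foxo1 in experiment 1 ranged from -0.13 to 0.010, positive without 21h10 1 nM duplicate 1, and the response difference of Lef1 from -0.023 to 0.13, negative without the first unstimulated library of experiment 2. The cause was not tested. Of the 8 genes, those past the threshold became 4 for 21h10 against mIL-21 at 1 nM and 7 for 21h10 at 100 against 10 nM in a fit of the compared groups alone. For 21h10 at 1 nM against unstimulated cells they became 4 with DESeq2 and 4 with the compared groups alone. For the change of the cytokine difference in experiment 2 they became 2 without a filter. With each library left out, the count ranged from 5 to 8 between the cytokines at 100 pM and from 5 to 8 at 1 nM, from 2 to 5 at 100 nM, from 1 to 6 for 21h10 at 100 against 10 nM, and from 1 to 2 for the change of the cytokine difference in experiment 2. It ranged from 5 to 7 for 21h10 at 1 nM against unstimulated cells and from 5 to 8 for 21h10 at 1 nM against 100 pM.

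The labels do not say whether the duplicate numbers pair libraries, and correlations from 2 libraries a group cannot settle it. The correlation of deviations between same-numbered libraries of 2 groups lay between -0.06 and 0.03 in experiment 1 and between -0.17 and 0.23 in experiment 2, over 10 pairs of groups each. With a replicate block, 1 call among the 8 genes moved, that of Tcf7 for 21h10 at 100 against 10 nM (-0.25, adjusted p = 0.0409), and 5 in place of 4 genes passed there. Over all genes, 103 passed for 21h10 at 100 pM against mIL-21 at 1 nM, but 31 with limma on log2(RPKM + 0.1) and 195 without a filter. At 10 nM 1 gene passed, but 179 without a filter. For 21h10 at 100 nM, 1175 genes differed from mIL-21, but 2026 in a fit of the compared groups alone, and 734 differed from 10 nM, but 406 with limma on log2(RPKM + 0.1) and 1553 in a fit of the compared groups alone. The change of the cytokine difference with dose in experiment 2 passed for 127 genes, but 55 with limma on log2(RPKM + 0.1) and 257 without a filter, and 14 genes passed without a filter between the doses of mIL-21 in experiment 2, where 0 did otherwise. Without mIL-21 100 pM duplicate 1, the genes past the threshold went from 5398 to 3505 between the cytokines at 100 pM and from 4825 to 3009 for mIL-21 at 1 nM against 100 pM. With each library left out they ranged from 372 to 1928 between the cytokines at 100 nM, from 254 to 1288 for 21h10 at 100 against 10 nM, and for the change of the cytokine difference with dose from 1650 to 3268 in experiment 1 and from 45 to 269 in experiment 2. The lowest counts of the 8 genes were those of Klf3, at 151 to 1186 reads in a library.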

Other observations

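The unstimulated cells of the experiments had different mean levels of the same genes. The mean of duplicates (n = 2) in experiments 1 and 2 was 1.72 and 24.2 RPKM for Klf2, a ratio of 14.1, with no overlap of the libraries. S1pr1, at 14.3 and 38.2 RPKM, and Klf3, at 1.81 and 4.79 RPKM, had ratios of 2.66 and 2.64. The ratio was 2.28 for Tcf7, 2.02 for Foxo1, 1.78 for Lef1, 1.31 for Satb1 and 1.11 for Myb, so all 8 means were higher in experiment 2. The difference was not tested, and the fold changes against unstimulated cells start from these unequal levels.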
